A study of Mus musculus with 7 samples.

Results

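The netrin and Unc5 guidance genes are a secreted ligand, *Ntn1*, and 6 of its transmembrane receptors, *Dcc*, *Neo1*, *Unc5a*, *Unc5b*, *Unc5c* and *Unc5d*. Their chromatin was described in mouse cerebellar granule cells from ChIP-seq peak tables, in which a peak is a place where the DNA fragments pulled down with an antibody pile up over the background. Members were the peaks whose centre lay in one of these 7 genes (GENCODE M21, mm10) or within 50 kb of it. They comprised 59 of 31400 H3K27ac peaks of WT granule neuron progenitors (GNPs), 5 of 1946 Chd7 peaks of WT GNPs and 0 of 96 Chd7 peaks of *Chd7* KO GNPs. The remaining tables, which played no part in the choice, hold Top2b peaks of WT and *Chd7* KO cerebellar granule neurons (CGNs), with 36 of 17030 and 30 of 21505 peaks in the same windows.

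GNPs were isolated fresh from P7 pups, without separation by sex, by percoll gradient, and CGNs were GNPs cultured for 48 hours without Shh. Mice were labelled C57BL/6 (C57BL/6N in the study's methods), KO cells came from *Atoh1-Cre::Chd7* f/f pups and WT cells from pups with functional Chd7, described in the study as *Chd7* f/f. Cre was driven by *Atoh1*, so the deletion was restricted to the *Atoh1* lineage, and the study notes that Chd7 protein remains in part of the posterior cerebellum. Each condition had 1 library, no replicate error exists, and no difference between libraries was tested.

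Netrin-1 is a laminin-related cue that growing axons and migrating neurons read through their receptors. Dcc and its relative neogenin, the product of *Neo1*, are mainly linked to attraction, and neogenin also binds repulsive guidance molecules. Unc5 receptors turn the response into repulsion, alone or together with Dcc, and mice without functional *Unc5c* have cerebella in which granule cells are misplaced. Chd7 is an ATP-dependent chromatin remodeller, H3K27ac is a histone mark of active promoters and enhancers, and Top2b is the DNA topoisomerase II of postmitotic neurons, which relieves torsional strain at transcribed and often long genes.

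The read numbers of the libraries are not in the tables. The weakest listed peaks had a pileup, the coverage by fragments at the summit, of 12.24 for H3K27ac, 12 for WT Chd7 and 14 for KO Chd7 (whole numbers throughout in the Chd7 tables, but in 5.07% of H3K27ac peaks), with −log10 q-values of 1.31 to 1.34, so weaker enrichment at a gene would not be listed. Of 10 granule lineage marker genes, 9 had an H3K27ac peak within 1 kb of a start site (*Ccnd1* had none). Of 21 markers of other cerebellar and vascular cell types 8 had one (*Pecam1*, *Gfap*, *Fabp7*, *Slc1a3*, *Pax2*, *Csf1r*, *Mbp* and *Foxp2*). Among all protein-coding genes the share with such a peak was 46.5%. A peak present in a fraction of the cells and a weaker one present in all of them cannot be told apart in such bulk tables, and the part of other cell types in the values below was not tested.

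H3K27ac marked 6 of the 7 genes, and Chd7 was found at 3. *Ntn1* had 19 H3K27ac peaks, *Dcc* 15, *Unc5c* 12, *Neo1* 7, *Unc5b* 5 and *Unc5a* 1, whereas *Unc5d* had none. This order depended on the threshold, since at a −log10 q-value of at least 5 *Ntn1* kept 14, *Dcc* 9, *Neo1* 7, *Unc5c* 6, *Unc5b* 5 and *Unc5a* 1. Chd7 peaks of WT GNPs numbered 2 at *Neo1*, 2 at *Unc5c* and 1 at *Ntn1*, and *Dcc*, *Unc5a*, *Unc5b* and *Unc5d* had none. For comparison, 73.5% of the 21938 protein-coding genes had at least 1 H3K27ac peak in the same kind of window, 14.3% had a Chd7 peak of WT GNPs and 0.205% had one of KO GNPs. Long genes had Chd7 more often. No Chd7 peak of WT GNPs was found in 79.1% of protein-coding genes of at least 100 kb and in 65.2% of those of at least 500 kb.

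These are long genes, with a median length of 191.5 kb against 17.4 kb for all protein-coding genes, and longer windows hold more peaks. Per 100 kb of window, H3K27ac peaks numbered 6.52 at *Ntn1*, 2.96 at *Unc5b*, 2.67 at *Neo1*, 2.55 at *Unc5c*, 1.25 at *Dcc*, 0.639 at *Unc5a* and 0 at *Unc5d*. *Dcc*, which is 1097.4 kb long, thus came behind *Ntn1* alone by number and behind *Unc5b*, *Neo1* and *Unc5c* too by density. Over the 3.22 Mb of the 7 windows the density was 1.83 H3K27ac peaks per 100 kb, beside 1.15 over the 2725.5 Mb of chromosomes 1 to 19, X and Y, a genome that also includes stretches without genes. For WT Chd7 the densities were 0.155 in the windows and 0.0698 in the genome.

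**Figure D1:**
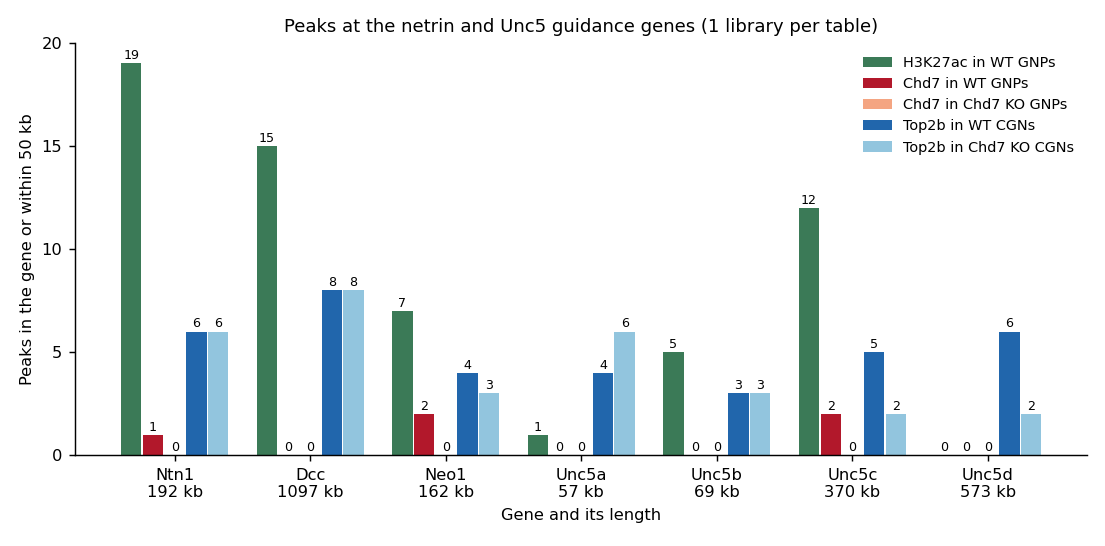
Number of peaks (y axis) in each gene or within 50 kb of it (x axis, with the gene's length in kb), 1 bar per table. *Ntn1*, *Dcc* and *Unc5c* hold 19, 15 and 12 H3K27ac peaks, the KO Chd7 bars are all 0, and *Unc5d* has Top2b peaks only (6 in WT and 2 in *Chd7* KO CGNs).

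All 5 Chd7 peaks lay inside an H3K27ac peak over their whole width, 3 at a start site and 2 away from any start site. Among all 1946 sites, 77.9% of WT Chd7 peaks shared 1 bp or more with H3K27ac. None of the 5 (0%, 95% Wilson interval 0 to 43.4%) overlapped a peak of KO GNPs, and 3.19% of all WT Chd7 peaks did. The KO table had no peak at all on chromosomes 3 and 11, which carry *Unc5c* and *Ntn1*, and the nearest one to *Neo1* on chromosome 9 was 56012 kb away. The peaks were of ordinary strength, with fold enrichments over the local background of 3.60 to 5.22 and a median of 4.59, beside a median of 4.07 and a highest value of 27.79 over all 1946.

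The sequences under the Chd7 summits are shown because the 3 start sites and the 2 distal sites differ in base composition. They were read from GRCm38 (RefSeq assembly), on the strand of the gene and 5′ to 3′, with CG dinucleotides in capitals. At the *Neo1* start the window stops where the annotated UTR begins, and for the *Unc5c* and *Ntn1* starts, whose summits lie in an annotated UTR, only the 30 bases about the summit are given.
*Neo1* start, chr9:59036442-59036595, minus strand: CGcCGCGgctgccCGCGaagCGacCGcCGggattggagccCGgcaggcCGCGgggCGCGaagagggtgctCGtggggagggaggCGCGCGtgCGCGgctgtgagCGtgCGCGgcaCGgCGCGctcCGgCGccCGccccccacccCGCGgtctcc
*Neo1* upstream site, chr9:59060208-59060407, minus strand: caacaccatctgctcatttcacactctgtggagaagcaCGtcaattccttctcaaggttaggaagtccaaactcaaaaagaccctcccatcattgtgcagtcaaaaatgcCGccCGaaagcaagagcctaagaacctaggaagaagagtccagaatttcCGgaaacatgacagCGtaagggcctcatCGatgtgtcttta
*Unc5c* intron site, chr3:141601286-141601485, plus strand: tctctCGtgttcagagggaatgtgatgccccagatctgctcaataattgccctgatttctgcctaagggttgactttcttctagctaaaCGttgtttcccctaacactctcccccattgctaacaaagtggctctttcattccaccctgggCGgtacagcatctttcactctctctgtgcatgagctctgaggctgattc
*Unc5c* start, chr3:141465449-141465478, plus strand: ttccCGagtgggggcagagcattagcagcc
*Ntn1* start, chr11:68386876-68386905, minus strand: tgCGCGccagCGagCGtgagtgtgtgtgtg

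The *Neo1* start window holds 30 CG dinucleotides in 154 bases, and the distal windows hold 6 (*Neo1*) and 3 (*Unc5c*) in 200 bases each. In the 200 bases centred on each summit, the ratio of observed to expected CpG was 1.12 at the *Neo1* start, 1.27 at the *Ntn1* start and 0.684 at the *Unc5c* start, against 0.566 and 0.265 at the *Neo1* and *Unc5c* distal sites. The median over the 1902 Chd7 windows on chromosomes 1 to 19, X and Y was 0.463. All 3 starts were thus above the median, but the *Unc5c* start was near the *Neo1* distal site, which was above it too. The *Ntn1* window was the only one of the 5 with repeat-masked bases (59% of its length).

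Short motifs were searched on both strands of the 200 bases centred on each summit. CAGATG, an E-box of the kind that basic helix-loop-helix factors such as Neurod1 and Atoh1 bind, matched in 1 of the 5 Chd7 windows, as CATCTG at position 7 of the *Neo1* upstream sequence, counted from its first base. It was present in 23.7% of all 1902 Chd7 windows. The related E-box CAGCTG had no match in the 5 windows and occurred in 19.4% of all Chd7 windows, and the E-box with the letters CACGTG had none either and occurred in 3.89%. The half-site of NFI factors, TTGGCA, was likewise without a match (18.8% of all Chd7 windows), as was the core of the CTCF motif (1.16%). In the windows of the 59 H3K27ac summits CAGATG was found in 15 (25.4%), beside 15% of all H3K27ac windows. TTGGCA was found in 15.3% of the 59 (9.63% of all) and CAGCTG in 10.2% (12.3% of all). CACGTG and the CTCF core were found in none of the 59 (2.81% and 0.36% of all). Fewer of the 59 summits were near a start than in the whole table (10.2% against 38.9%), so the windows compared differ in kind.

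*Ntn1*, the ligand, lies on the minus strand at chr11:68209364-68400823 (191.5 kb) and has annotated starts at its 5′ end (the outer start) and farther inside (the inner start, at 68386826). Chd7 and the strongest H3K27ac peak of the gene were both at the inner start, which is also the start of the transcript with the longest coding sequence. The Chd7 peak (chr11:68386631-68387150) had its summit 65 bp upstream of it, with a pileup of 24 fragments (exact 95% Poisson interval 15.4 to 35.7, counting error only), a fold enrichment of 4.99 and q at 7.13 on the −log10 scale. It lay within an H3K27ac peak of 1869 bp with a fold enrichment of 8.08. No H3K27ac or Chd7 peak was listed at the outer start, where Top2b peaks of both genotypes were found instead.

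The other 18 H3K27ac peaks at *Ntn1* were weaker, and 9 of them formed a group of 31.1 kb in introns 5 and 6, towards the 3′ end. Highest in that group were peaks at 167.6 kb and 156.4 kb from the outer start, with fold enrichments of 6.34 and 5.55, and the highest peak outside the group and away from the start was one of 6.21 in intron 2. The lowest was 2.40, and the median over the 19 was 3.67. Fewer H3K27ac peaks than at *Ntn1* were found in 99.2% of protein-coding genes.

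*Dcc*, the receptor that gave its family the name, is the longest of the 7 genes (chr18:71253634-72351069, minus strand). It had no Chd7 peak in either genotype. The summits of its 15 H3K27ac peaks all lay in introns, 4 of them grouped at the start and 4 more deep in intron 1. The start peak (2243 bp, fold enrichment 9.57) spanned the 5′ end with its summit 1.5 kb inside the gene. The highest peak of the gene (chr18:72032261-72033508, fold enrichment 10.19) was 318.1 kb inside it, in intron 1, and 4634 of the 31400 H3K27ac peaks had a higher value. The other 7 were single peaks with fold enrichments of 2.68 to 5.21, including 4 beyond intron 2.

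*Neo1* (chr9:58874687-59036441, minus strand, 161.8 kb) had the strongest H3K27ac of the 7 genes, and all of it at or upstream of the start. The start peak (chr9:59035467-59038473) had a pileup of 160.94 and a fold enrichment of 26.43, and only 330 of all 31400 peaks had a higher fold enrichment. The next one (chr9:59055814-59061239) was 5426 bp wide, 23.59 kb upstream, with a fold enrichment of 20.26. The other 5, weaker peaks (3.30 to 4.78) followed at 25.62 to 37.02 kb upstream, and none was listed inside the gene body.

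Both strong *Neo1* peaks carried Chd7. The Chd7 peak at the start (chr9:59036045-59036861) was the strongest of the 5 by fold enrichment, with its summit 55 bp upstream of the start, a pileup of 25 (16.2 to 36.9), 5.22-fold enrichment and a −log10 q-value of 7.90. The upstream one (chr9:59060166-59060484), 23.87 kb before the start, reached a pileup of 23 (14.6 to 34.5), 4.12-fold enrichment and a −log10 q-value of 5.06. *Neo1* was the nearest protein-coding start site to both.

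*Unc5c* (chr3:141465216-141834924, plus strand, 369.7 kb) is the receptor of the repulsive class with both marks. Its start lay in an H3K27ac peak of 4601 bp with a fold enrichment of 14.78, and the Chd7 peak there (chr3:141465248-141465689) had its summit 248 bp inside the 5′ end and 110 bp upstream of the next annotated start. With a pileup of 20 (12.2 to 30.9), 3.60-fold enrichment and a −log10 q-value of 3.38 it was the weakest of the 5 Chd7 peaks by fold enrichment, and 1438 of the 1946 had a higher fold enrichment. The second Chd7 peak (chr3:141601145-141601512) was 136.2 kb inside the gene, in intron 1, with a pileup of 19 (11.4 to 29.7), 4.59-fold enrichment and a −log10 q-value of 4.95. Neither Chd7 peak of *Unc5c* thus reached a −log10 q-value of 5, which the other 3 did. It lay in an H3K27ac peak of 1148 bp (fold enrichment 6.58), the highest of *Unc5c* away from its start. The other 10 H3K27ac peaks of *Unc5c* reached 6.06 at most.

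The other Unc5 receptors had no Chd7 peak. *Unc5b* (chr10:60762593-60831581, minus strand) had 5 H3K27ac peaks, all within the first 14.82 kb of the gene. The strongest (chr10:60819769-60821699, fold enrichment 13.54) was not at the 5′ start, which had 4.44, but 548 bp upstream of the start of a shorter noncoding transcript inside intron 1. *Unc5a* (chr13:54949411-55006018, plus strand) had a single H3K27ac peak (chr13:54958952-54959621, fold enrichment 6.08) in intron 1, 9.885 kb from its start, and none within 1 kb of a start site.

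*Unc5d* (chr8:28646717-29219636, minus strand, 572.9 kb) had neither mark. The nearest H3K27ac peaks were 534 kb upstream of its start and 347 kb beyond its 3′ end, so that the gene sat in a stretch of 1455 kb between 2 neighbouring H3K27ac peaks. Of the 230 protein-coding genes of at least 500 kb, to which *Unc5d* and *Dcc* belong, 12.2% had no H3K27ac peak in their window. In the 300 bases about its start, most of them upstream, the observed-to-expected CpG ratio was 0.99, the same as at *Unc5b*. The ratio was 1.05 at *Neo1*, 0.922 at *Unc5c*, 0.816 at *Unc5a*, 0.647 at *Dcc*, 1.1 at the inner and 0.379 at the outer *Ntn1* start, and the median of all protein-coding genes was 0.524.

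**Figure D2:**
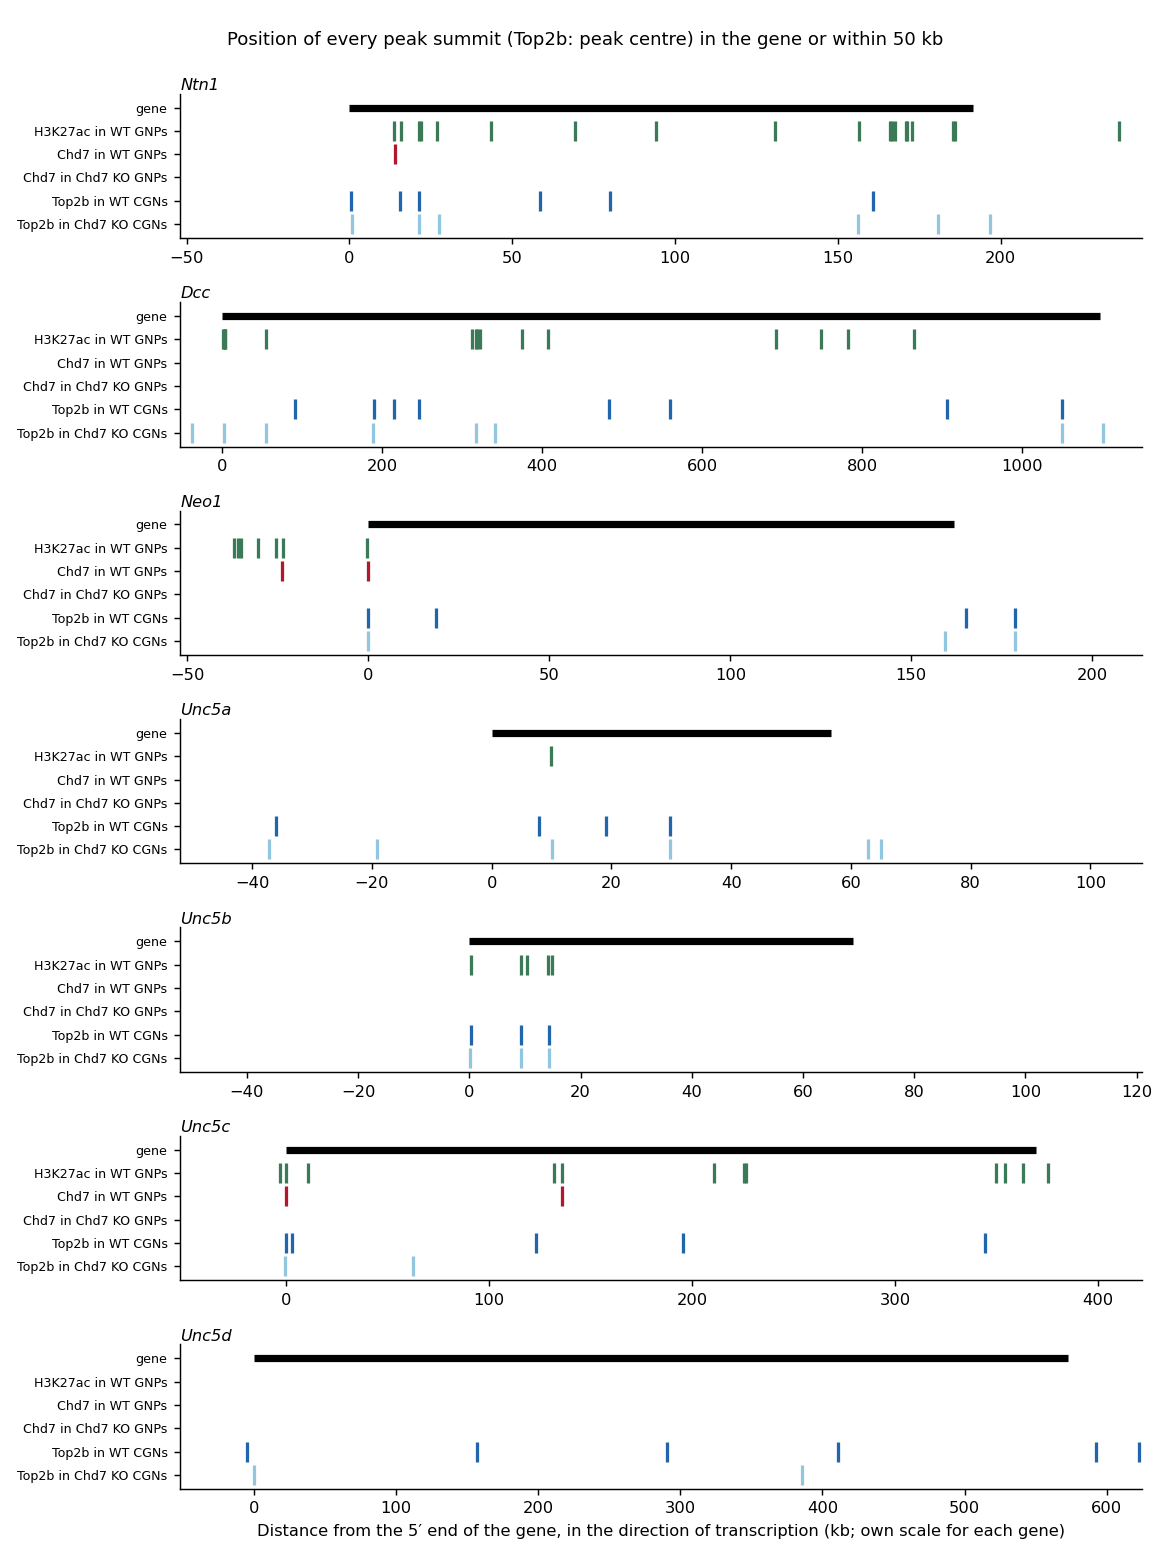
Position of each peak along the 7 genes, in kb from the 5′ end in the direction of transcription (x axis, own scale for each gene), with 1 row per table and the gene as a black bar. H3K27ac at *Neo1* lies at and upstream of the start, the distal Chd7 site of *Unc5c* is 136.2 kb inside the gene, and *Unc5d* shows Top2b only.

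At gene level, 5 of the 7 genes had an H3K27ac peak reaching within 1 kb of a start site of the gene (46.5% of protein-coding genes did). These were *Ntn1*, *Dcc*, *Neo1*, *Unc5b* and *Unc5c*. Chd7 of WT GNPs was within 1 kb of a start in 3 of the 7, *Ntn1*, *Neo1* and *Unc5c* (4.17% of protein-coding genes). Chd7 of KO GNPs was so in none of the 7 (0.0273%). Among the 2492 protein-coding genes of at least 100 kb, to which 5 of the 7 belong, the shares were 59.3% for H3K27ac and 7.95% for WT Chd7. By summit, however, most H3K27ac peaks of the 7 genes were distal. Of the 59 peaks, 6 (10.2%, interval 4.74 to 20.5%) had their summit within 1 kb of any annotated start, against 38.9% of all H3K27ac peaks, and 46 of the 59 summits were in introns. By this count the *Dcc* start peak, with its summit 1.5 kb inside the gene, was distal. The 6 included a peak in intron 3 of *Ntn1*, 116.8 kb from the nearest *Ntn1* start.

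The H3K27ac peaks that carried Chd7 were the stronger ones. Their fold enrichments were 26.43, 20.26, 14.78, 8.08 and 6.58, with a median of 14.78, and the 54 peaks without Chd7 ranged from 2.40 to 13.54 with a median of 3.86. The 2 ranges overlapped, since *Unc5b* (13.54) and *Dcc* (10.19 and 9.57) had peaks without Chd7 that were stronger than those at the *Ntn1* start and in the *Unc5c* intron. Over the whole table the median was 10.59 for the 1565 H3K27ac peaks with Chd7 and 4.35 for all. Chd7 overlapped 5 of the 59 H3K27ac peaks (8.47%, interval 3.67 to 18.4%), beside 4.98% of all H3K27ac peaks. All 59 had a median fold enrichment of 3.92, below that of the whole table. Away from start sites the medians were 3.89 for the 53 peaks of these genes and 3.78 for all 19179. Of the 6 H3K27ac peaks with the summit near an annotated start of any gene 3 overlapped Chd7 (6.96% of all such peaks did), as did 2 of the 53 away from one (3.72%).

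**Figure D3:**
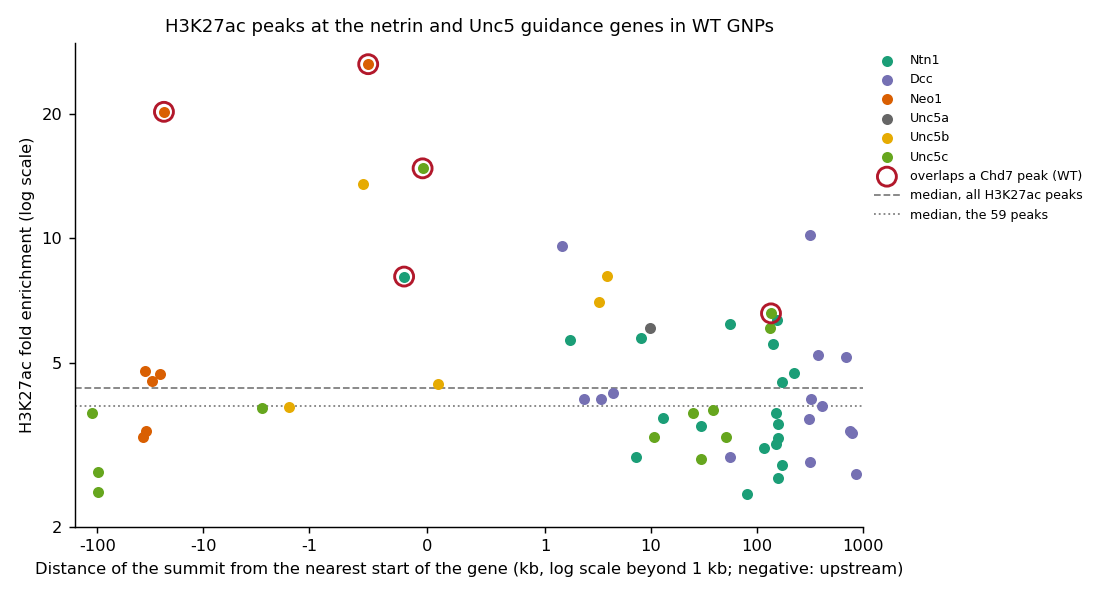
H3K27ac fold enrichment (y axis, log scale) of the 59 peaks against the distance of their summit from the nearest start of the gene (x axis, kb, log scale beyond 1 kb, negative upstream), coloured by gene, with red circles for overlap with a Chd7 peak of WT GNPs. The circled peaks lie between 6.58 and 26.43, and the dashed and dotted lines mark the medians of all peaks (4.35) and of these 59 (3.92).

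Large H3K27ac domains were approximated by joining peaks within 12.5 kb and ranking the 17539 resulting regions by the sum of width times pileup. By this ranking 613 regions lay beyond the point where the curve of ranks turns steep, and 2 regions at these genes were among them. These were the upstream region of *Neo1* (18.1 kb, 6 peaks, rank 257) and the start region of *Unc5c* (14.3 kb, 3 peaks, rank 376), each with 1 Chd7 peak. The share of the 613 regions that hold a Chd7 peak is not given here. The study reports Chd7 enriched in such domains of GNPs in general. The remaining Chd7 peaks lay in regions before that point, at the *Neo1* start, the *Ntn1* start (rank 3382) and in the *Unc5c* intron (rank 6645). The *Neo1* start alone ranked 728 and the *Unc5b* region 1104, and the group of 9 peaks in the 3′ part of *Ntn1*, although 31.1 kb long, ranked 2452.

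Top2b was found at all 7 genes in CGNs of both genotypes, including those without Chd7 or H3K27ac in GNPs. Such windows held a Top2b peak in 62.2% of protein-coding genes in WT and in 71% in *Chd7* KO CGNs. Long genes lacked one less often. Of the 2492 protein-coding genes of at least 100 kb, to which 5 of the 7 belong, 16.3% had none in WT and 11.6% none in KO. In WT CGNs the peaks numbered 8 at *Dcc*, 6 at *Ntn1*, 6 at *Unc5d*, 5 at *Unc5c*, 4 at *Neo1*, 4 at *Unc5a* and 3 at *Unc5b*. In *Chd7* KO CGNs there were 8, 6, 2, 2, 3, 6 and 3 in the same order of genes. The sum was thus 36 in WT and 30 in KO, a ratio of 0.833, while the whole KO table was larger than the WT table by a factor of 1.26. The tables give no height or score, so only presence could be compared, and with 1 library per genotype no difference was tested.

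*Unc5c* and *Unc5d* had fewer Top2b peaks in KO than in WT CGNs (5 against 2 and 6 against 2), *Unc5a* had more (4 against 6), and the other 4 genes differed by at most 1. For *Unc5a* the direction turned with the window, with 3 in WT against 2 in KO inside the gene body and 4 against 4 when peaks nearer to another protein-coding start were left out. Inside the gene bodies *Unc5d* had 3 against 2 and *Unc5c* 5 against 1. That count leaves out the KO peak at the *Unc5c* start, which overlapped a WT peak, because its centre lay 188 bp upstream of the gene. With 5 kb upstream and 1 kb downstream included, *Unc5c* had 5 against 2 and *Unc5d* 4 against 2. Of the 36 WT peaks, 10 (27.8%, interval 15.8 to 44%) overlapped a KO peak, beside 16.8% of all WT Top2b peaks. Within *Unc5b* all 3 positions recurred, each overlapping H3K27ac of GNPs, though not the strongest peak of that gene (13.54). At *Unc5d* none of the 6 WT positions recurred in KO, and at *Dcc* 1 of 8 did. In a peak list, a site just above the threshold in one library and just below it in the other is counted as unshared.

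**Figure D4:**
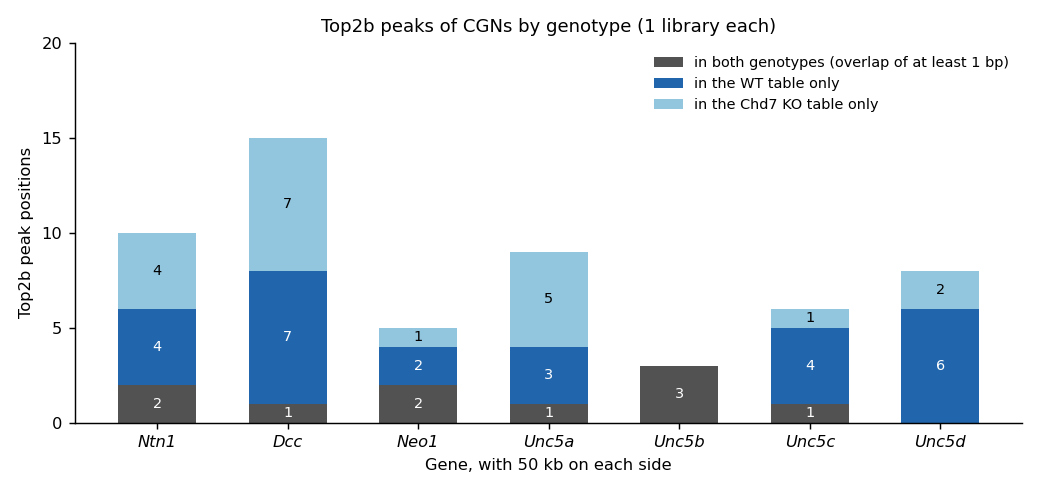
Top2b peak positions in CGNs at each gene with 50 kb on each side (x axis), stacked by whether the WT and *Chd7* KO tables share them (y axis, number). *Unc5b* has 3 shared positions and no others, *Unc5d* has 6 WT and 2 KO positions with none shared, and *Dcc* has 1 shared position, 7 in WT alone and 7 in KO alone.

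Several of the shared Top2b positions were at start sites. Within 1 kb of an annotated start of any gene lay 5 of the 36 WT peaks and 8 of the 30 KO peaks (19.8% and 27.4% of the whole tables). Not at a start of these genes were the WT peak 35.94 kb upstream of *Unc5a* and the KO peaks 37.1 and 19.2 kb upstream of it. The same held for the KO peak in intron 6 of *Ntn1*. Of the 5 WT peaks, 4 overlapped a KO peak, those at the outer *Ntn1* start, *Neo1*, *Unc5b* and *Unc5c*, and of the 31 away from starts 6 did. In the whole WT table these shares were 36.1% and 12%. At these 4 starts the centres of the WT and KO peaks were 164 to 230 bp apart. Any overlapping pair has centres closer than the peak width of 396 and 400 bp. For the 6 shared pairs away from starts the centres were 2 bp (*Unc5a*) to 210 bp (*Ntn1*) apart. The start of *Unc5d*, which had no peak in any other table, carried a Top2b peak of KO CGNs, its centre 84 bp inside the gene, with no WT peak within 1 kb. Such a case was common, since 20.6% of all KO Top2b peaks within 1 kb of a start overlapped a WT peak. A Top2b peak lay within 1 kb of a start in 24.5% of protein-coding genes in KO and in 13.4% in WT.

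Top2b of WT CGNs was found at 2 of the 5 Chd7 sites, by 2 of its 36 peaks (1.9% of all WT Top2b peaks overlapped Chd7). Both were starts, *Neo1*, where WT and KO Top2b peaks overlapped the Chd7 peak by 396 and 400 bp, and *Unc5c*, where the WT Top2b peak overlapped it by 191 bp and the KO peak, displaced by 212 bp, did not. Over all 1946 sites, 16.6% of WT Chd7 peaks overlapped a Top2b peak of WT CGNs and 34.2% one of KO CGNs. The centre of the nearest WT Top2b peak was 1.58 kb from the *Ntn1* summit, 13.1 kb from the *Unc5c* intron site and 23.7 kb from the upstream *Neo1* site. Chd7 was measured in GNPs and Top2b in the neurons cultured from them, so these overlaps join 2 stages.

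Several H3K27ac peaks of GNPs overlapped a Top2b peak of KO CGNs with no WT counterpart. They included the single peak of *Unc5a* in intron 1, the strong intron 1 peak of *Dcc* at 318.1 kb and the *Ntn1* peak at 156.4 kb. The reverse, a WT Top2b peak on H3K27ac with no KO counterpart, was found in exon 2 of *Ntn1* and 2.833 kb inside *Unc5c*. Most Top2b peaks were unshared in the whole tables too, where 13.3% of KO and 16.8% of WT peaks overlapped one of the other genotype. In all, 11 of the 30 KO Top2b peaks (36.7%, interval 21.9 to 54.5%) and 8 of the 36 WT peaks (22.2%, interval 11.7 to 38.1%) overlapped H3K27ac, beside 26.6% and 17.4% over the whole tables. Counted by H3K27ac peak, 12 of the 59 overlapped Top2b of KO CGNs and 8 that of WT CGNs, beside 18.3% and 9.38% of all H3K27ac peaks.

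**Figure D5:**
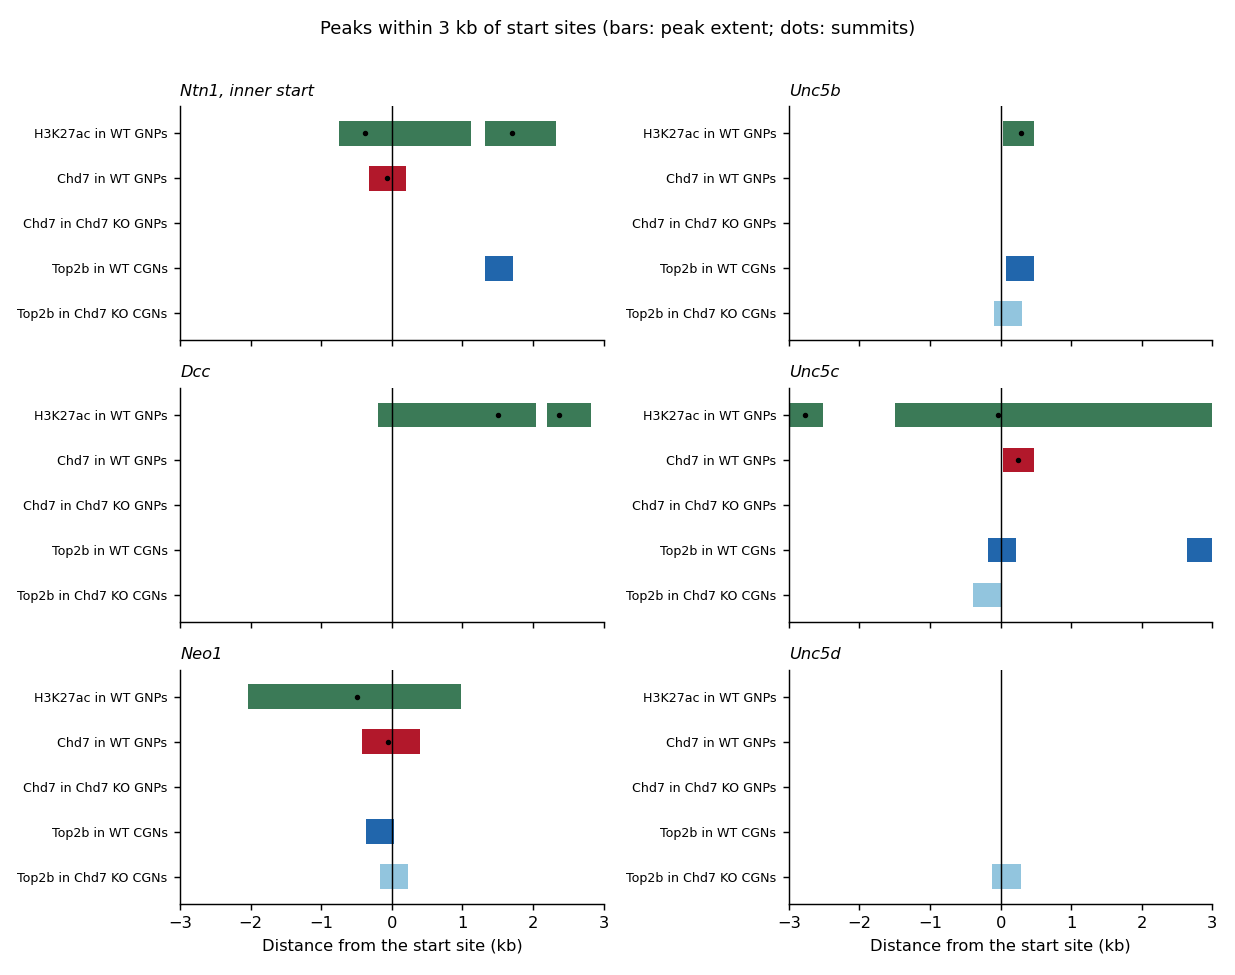
Peaks within 3 kb of 6 start sites (x axis, kb in the direction of transcription, start at 0), with bars for the extent of each peak, dots for summits and 1 row per table. Chd7 sits inside H3K27ac at the inner *Ntn1* start, *Neo1* and *Unc5c*, *Unc5b* has H3K27ac and Top2b of both genotypes but no Chd7, and *Unc5d* has a Top2b peak of KO CGNs alone.

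The wider pathway was followed in 36 further genes. Of 6 ligands and co-ligands, all had an H3K27ac peak in the window, 4 had one at a start and 1 had a Chd7 peak of WT GNPs. Of 9 further receptors and Unc5 partners 7 had H3K27ac, 5 had it at a start and 3 had Chd7, and of 21 intracellular effectors 20, 19 and 5 did. Together 28 of 36 genes had H3K27ac at a start, 9 had Chd7 in the window, 3 had it at a start and none had a Chd7 peak of KO GNPs, against the 46.5%, 14.3%, 4.17% and 0.205% of all protein-coding genes given above. These shares are not matched for gene length, and of genes of at least 100 kb 79.1% had no Chd7 peak of WT GNPs in the window. Top2b peaks of WT CGNs were found at 30 of the 36 and of KO CGNs at 33, beside 62.2% and 71% of protein-coding genes.

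The 9 genes with Chd7 held 13 peaks, with fold enrichments from 3.22 to 6.07. Among guidance cues and receptors these were *Draxin*, which encodes a netrin-binding protein, *Dscam*, a further netrin receptor, and the Slit receptors *Robo1* (2 peaks) and *Robo2*, whose peak was the strongest (fold enrichment 6.07). None of these 5 was at a start, and the *Draxin* peak was the 1 of the 13 outside H3K27ac. That peak lay inside *Draxin* but was nearest to the start of *Mad2l2*. Among effectors, *Trim67*, *Appl1* and *Myo10*, an unconventional myosin of filopodia, had Chd7 at a start (1, 1 and 3 peaks), *Enah*, which promotes actin filament growth, had 2 peaks 14.9 and 19.4 kb downstream, and that of *Ablim1* was nearest to the start of *Fam160b1*. None of the 13 overlapped a Top2b peak of WT CGNs, beside 16.6% of all WT Chd7 peaks.

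*Neo1* was the gene with 2 Chd7 peaks and the larger sum of H3K27ac fold enrichment (67.37, against 57.37 for *Unc5c*). The protein-coding genes with peak counts most like it over the 5 tables were *Ccdc151* (8 H3K27ac, 2 WT Chd7, 0 KO Chd7, 4 WT Top2b and 3 KO Top2b peaks; Euclidean distance 0.17 on the log2(count + 1) scale), *Prkcsh* (0.31) and *Mapk4* (0.32). The windows of the first 2 overlap and share peaks, and *Mapk4* was nearest in length among 3 genes at its distance.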

How the data were processed

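Peaks from 5 of the 7 libraries were analysed, and the inputs were not analysed here. The authors trimmed the reads with Trim Galore, mapped them to mm10 with bowtie 1.0.0, keeping unique alignments, and called peaks with macs2 (Chd7, H3K27ac) or homer (Top2b). The control is not given in the sources used here. The deposited pileup is a coverage signal at the summit. The authors also deposited −log10 p-values, fold enrichment, which is (pileup + 1)/(local background + 1), and −log10 q-values as other columns, with lost decimal points, which were restored by dividing by 100000. Recomputed −log10 p-values differed by at most 0.00022 (Chd7) and 0.0026 (31348 of 31400 H3K27ac peaks). The Top2b files hold positions only.

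Genes, introns (numbered in the transcript with the longest coding sequence) and UTRs came from GENCODE M21. Overlap meant at least 1 bp. Shares have 95% Wilson intervals, which cover counting error only. Named genes were the 7 members, other listed pathway genes with a Chd7 peak, and the 3 genes with the most similar peak counts. Members and lists were chosen with earlier results of these data known. The overlap and window counts were tested on simulated peaks. Alternatives changed window, placement, overlap and threshold. Scripts ran in Python 3.11.15 with scipy 1.17.1, numpy 2.4.6, pysam 0.24.0, pandas 2.3.3 and matplotlib 3.10.9.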

Additional observations from a re-analysis of the deposited data

How the results depend on the processing

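Of 37 alternative settings for 10 results, 35 left the value within 1.5 times the reported count or within its interval, and none reversed one. Some of the 35 could not have differed. A narrower window or stricter threshold cannot lower a KO Chd7 count of 0, and Chd7 peaks wholly inside H3K27ac pass any coverage setting. The 10 results are values over all the genes together, and the direction for Top2b at *Unc5a* did turn with the window. The 2 settings that moved a value were both for the 5 Chd7 peaks of WT GNPs. Counting within the gene bodies gave 3, as the *Neo1* peaks lie upstream, and a −log10 q-value of at least 5 gave 3, at *Ntn1* (1) and *Neo1* (2), so neither *Unc5c* peak passed it. For H3K27ac the total ranged from 42 (the same threshold) to 70 (100 kb on each side). Within 100 kb *Unc5a* had 5 H3K27ac peaks instead of 1, and *Unc5d* still had 0. A restriction of the Top2b peaks to the higher scores was not run, since those files hold no score. No paired analysis was possible because each condition has 1 sample. Variation between animals cannot be estimated from single libraries, and without the depth of each library in the tables an absent peak may be one below the threshold.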
